A study of Homo sapiens with 8 samples.

Results

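FOXP1 (ENSG00000114861) lies on chromosome 3 between positions 71003844 and 71633129 of hg19, on the minus strand, and spans 629 kb. All peaks of the 8 deposited lists in the gene and in 100 kb on either side of it were collected, which gave 128 of 560619 peaks. Overlapping or touching peaks of the 4 libraries of a mark were merged into regions. At FOXP1 this gave 67 of 256286 regions, 38 of 122500 for H3K23su and 29 of 133786 for H3K27ac. The gene was selected because HCT15-FR peaks were already known to outnumber HCT15-Pa peaks there in both marks. The values below therefore describe the locus and carry no test.

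The libraries were CUT&Tag profiles, in which an antibody tethers a transposase that cuts and tags the chromatin around a histone mark. All came from HCT15, an established human colorectal cancer line. HCT15-Pa is the parental line, labelled as given DMSO, the vehicle. HCT15-FR was raised from HCT15-Pa to resist 5-fluorouracil (5-FU), an antimetabolite given in colorectal cancer, and is labelled with 5-FU at 20 µg/mL. Each mark was profiled in 2 HCT15-Pa and 2 HCT15-FR libraries. The methods of the study state that resistant cells were kept in drug-free medium before experiments, so whether 5-FU was present when these cells were taken is not clear. HCT15-FR is 1 derived line, so resistance, its selection and any effect of the drug itself cannot be told apart. Separate cultures are not stated for the replicates, so the spread between libraries of a line may be technical. With 2 libraries against 2, an exact permutation test could not go below p = 0.333. The H3K23su lists held 65364 to 68365 peaks and the H3K27ac lists 70600 to 76676. They give no read counts, so the depth behind each peak cannot be read from them, and the read totals that the study lists per library were not used here. In these lists the absence of a peak says only that nothing passed the threshold of the authors in that library.

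FOXP1 encodes a transcription factor of the FOXP subfamily, which binds DNA through a forkhead domain and acts mostly as a repressor together with corepressor complexes. The gene is expressed in many epithelia and in lymphocytes. It has many start sites and yields full-length and N-terminally shortened proteins, so the start site in use bears on which protein is made. H3K27ac marks active promoters and enhancers. H3K23su is succinylation of lysine 23 of histone H3, an acyl mark whose donor is succinyl-CoA.

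GENCODE places 71 FOXP1 transcripts here, 36 of them protein-coding. The introns are numbered along FOXP1-202 (ENST00000318789), which has 21 exons and 20 introns and begins at the first start site. Its start codon at position 71247532 in exon 6 is the one of 24 transcripts, a downstream one at 71102906 in exon 8 that of 13, and one at 71096195 in exon 10 that of 3. Start sites at most 500 bp apart were joined into 31 promoters, numbered P1 to P31 from 5′ to 3′, each with a window from 1 kb upstream to 100 bp downstream.

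The sequences below come from places described in the following paragraphs. They are GRCh37 reference sequence, the assembly known as hg19, printed 5′ to 3′ on the minus strand, which is the strand of the gene, and none overlaps an annotated exon. The first is the 200 bases before P1, the most upstream promoter, whose window had peaks of both marks in HCT15-FR and in HCT15-Pa replicate 2. The H3K23su peak of HCT15-Pa replicate 2 spans all of these bases. The second is the 200 bases before P23, a CpG-rich internal promoter whose window had peaks in HCT15-FR alone. The H3K23su peaks of HCT15-FR replicate 2 at P1 and P23 lie outside the bases printed for these promoters. The third is the middle of the strongest H3K23su peak of the locus, in intron 2. The last 4 are from H3K23su regions that were found in HCT15-FR replicates 1 and 2 but not in HCT15-Pa, and hold a core of AP-1, forkhead or KLF factors, the motif families considered in the study. Capitals mark TGANTCA (AP-1, its own reverse complement), TGTTTAC (forkhead, or GTAAACA on the other strand) and GGGNGTGG (KLF).
P1, chr3:71633130-71633329: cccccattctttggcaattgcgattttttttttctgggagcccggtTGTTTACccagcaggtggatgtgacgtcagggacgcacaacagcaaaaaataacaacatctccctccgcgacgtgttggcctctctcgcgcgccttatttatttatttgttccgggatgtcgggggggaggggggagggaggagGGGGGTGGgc
P23, chr3:71114135-71114334: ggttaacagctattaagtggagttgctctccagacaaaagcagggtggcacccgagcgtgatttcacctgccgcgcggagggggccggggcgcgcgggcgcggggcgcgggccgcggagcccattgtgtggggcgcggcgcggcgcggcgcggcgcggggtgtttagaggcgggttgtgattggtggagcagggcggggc
Intron 2, chr3:71591879-71592078: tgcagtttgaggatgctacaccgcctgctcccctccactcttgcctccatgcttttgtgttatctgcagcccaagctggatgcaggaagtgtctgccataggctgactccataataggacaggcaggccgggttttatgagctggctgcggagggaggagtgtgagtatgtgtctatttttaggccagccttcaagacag
Intron 14, AP-1 core, chr3:71032136-71032262: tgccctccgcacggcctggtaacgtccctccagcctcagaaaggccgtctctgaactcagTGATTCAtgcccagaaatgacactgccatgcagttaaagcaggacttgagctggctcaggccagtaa
Intron 7, KLF core, chr3:71114612-71114739: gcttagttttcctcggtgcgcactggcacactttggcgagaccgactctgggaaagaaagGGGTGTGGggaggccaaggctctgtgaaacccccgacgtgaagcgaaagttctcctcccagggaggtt
Intron 6, forkhead core, chr3:71244768-71244894: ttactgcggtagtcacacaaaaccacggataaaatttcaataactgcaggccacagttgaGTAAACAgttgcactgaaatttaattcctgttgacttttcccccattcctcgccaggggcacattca
Intron 3, AP-1 core, chr3:71496462-71496588: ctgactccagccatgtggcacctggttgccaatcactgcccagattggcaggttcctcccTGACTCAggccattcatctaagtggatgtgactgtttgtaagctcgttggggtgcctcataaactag

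The HCT15-FR lists held many more peaks at FOXP1 than the HCT15-Pa lists. For H3K23su there were 7 and 4 peaks in HCT15-Pa replicates 1 and 2 against 29 and 28 in HCT15-FR replicates 1 and 2. For H3K27ac there were 3 and 2 in HCT15-Pa against 30 and 25 in HCT15-FR. In neither mark did the lines overlap. Within the gene alone the counts were 6, 4, 26 and 27 for H3K23su and 3, 2, 29 and 24 for H3K27ac, in the same order.

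**Figure D1:**
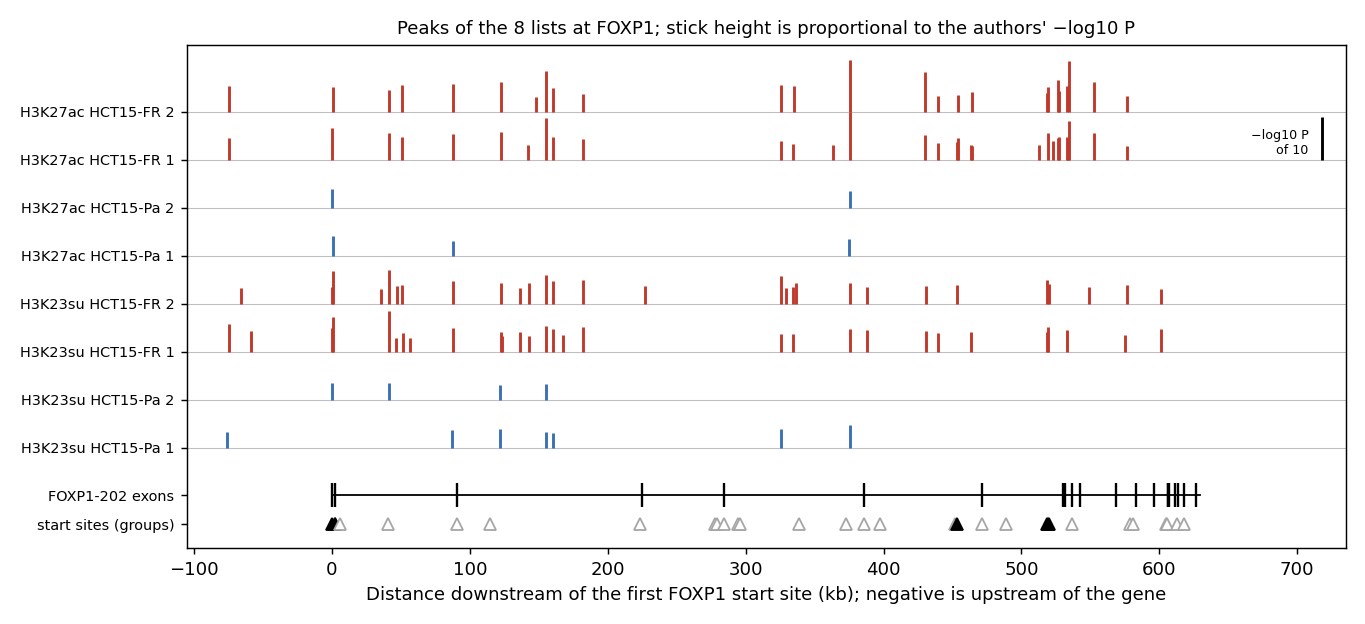
Peaks of the 8 lists along FOXP1, with the distance downstream of the first start site in kb on the x axis and 1 row per library. Each stick is a peak, its height is the authors' −log10 P on a common scale, HCT15-Pa is blue and HCT15-FR red, the black row shows the exons of FOXP1-202, and filled triangles are promoters with a peak of either mark. The HCT15-FR rows hold 25 to 30 peaks each and the HCT15-Pa rows 2 to 7.

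Peaks of H3K23su covered 1872 and 1557 bp of the stretch in HCT15-Pa and 14905 and 14700 bp in HCT15-FR. The means were 1.71 ± 0.223 kb and 14.8 ± 0.145 kb (SD, n = 2 libraries each), a ratio of 8.63, with 7.85 to 9.57 over the 4 pairs of libraries. H3K27ac covered 615 and 671 bp in HCT15-Pa and 20011 and 18917 bp in HCT15-FR. Its means were 0.643 ± 0.0396 kb and 19.5 ± 0.774 kb (SD, n = 2 libraries each), a ratio of 30.3, with 28.2 to 32.5 over the pairs. When the stronger 50% of each list was kept, the ratios were 121 for H3K23su and 133 for H3K27ac. Their size thus depends on the peak threshold. That cut left HCT15-Pa only a 146 bp peak of H3K23su and a 222 bp peak of H3K27ac, both in replicate 1. Peaks were wider in HCT15-FR over the whole lists too, and the ratio over all chromosomes was 1.19 for both marks. In the 2 Mb on either side of the FOXP1 stretch it was 1.19 for H3K23su and 1.48 for H3K27ac, and over the rest of chromosome 3 it was 1.19 and 1.20. The ratio at FOXP1 was thus several times that of its surroundings in both marks.

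**Figure D2:**
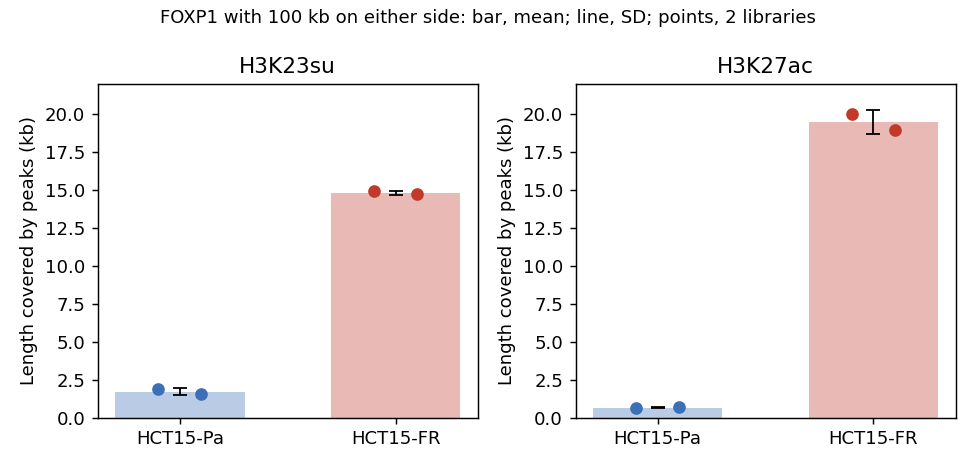
Length covered by peaks, in kb, in FOXP1 with 100 kb on either side, for H3K23su (left) and H3K27ac (right). Bars are means, lines the SD and points the 2 libraries of each line, and all HCT15-FR points lie above 14 kb while all HCT15-Pa points lie below 2 kb.

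Of the 38 H3K23su regions, 10 had a peak in each HCT15-FR library and none in HCT15-Pa (26.3%, called FR-only here), and 0 had the reverse pattern (Pa-only). Over all H3K23su regions, 7.95% were FR-only and 5.01% Pa-only. Only 2 regions of the locus were found in all 4 libraries, 20 were in a single library and 6 in other combinations. Of the 20 single-library regions, 10 were in HCT15-FR replicate 1, 9 in HCT15-FR replicate 2 and 1 in HCT15-Pa replicate 1. Singles made up 52.6% of the regions here and 46.8% over the genome. When 1 HCT15-FR library was left out, so that a peak in the other one was enough, the FR-only count was 20 without replicate 1 and 22 without replicate 2.

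H3K27ac was more one-sided. Of its 29 regions, 20 were FR-only (69.0%) and 0 Pa-only, against 9.08% and 4.53% over all H3K27ac regions. The remainder were 2 regions in all 4 libraries, 6 in a single HCT15-FR library and 1 in another combination. Every one of the 29 regions had an HCT15-FR peak, 23 of them in both libraries. Only 3 had an HCT15-Pa peak. FOXP1 was chosen on these contrasts, so nothing further is read from the shares.

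Regions present in both lines were still larger in HCT15-FR. There were 8 such regions for H3K23su and 3 for H3K27ac, and in all 8 and all 3 the HCT15-FR library with fewer covered bases exceeded the HCT15-Pa library with more. The share of regions like this over the genome is not given here, so nothing is read from these counts. Over the whole lists the median H3K23su peak was 387 and 386 bp wide in HCT15-Pa and 451 and 447 bp in HCT15-FR. For H3K27ac it was 403 and 403 bp against 483 and 467 bp. The highest-ranked H3K23su region shared by all 4 libraries, chr3:71477561-71478552 in intron 3, was covered over 344 and 511 bp in HCT15-Pa and 849 and 992 bp in HCT15-FR. Its scores, the authors' −log10 P of the peak, were 3.70 and 3.50 against 5.96 and 6.61. At the same place H3K27ac had peaks only in HCT15-FR, with scores of 9.78 and 9.45. The other shared H3K23su region, chr3:71509983-71511184 in the same intron, was covered over 167 and 313 bp in HCT15-Pa and 715 and 1021 bp in HCT15-FR.

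**Figure D3:**
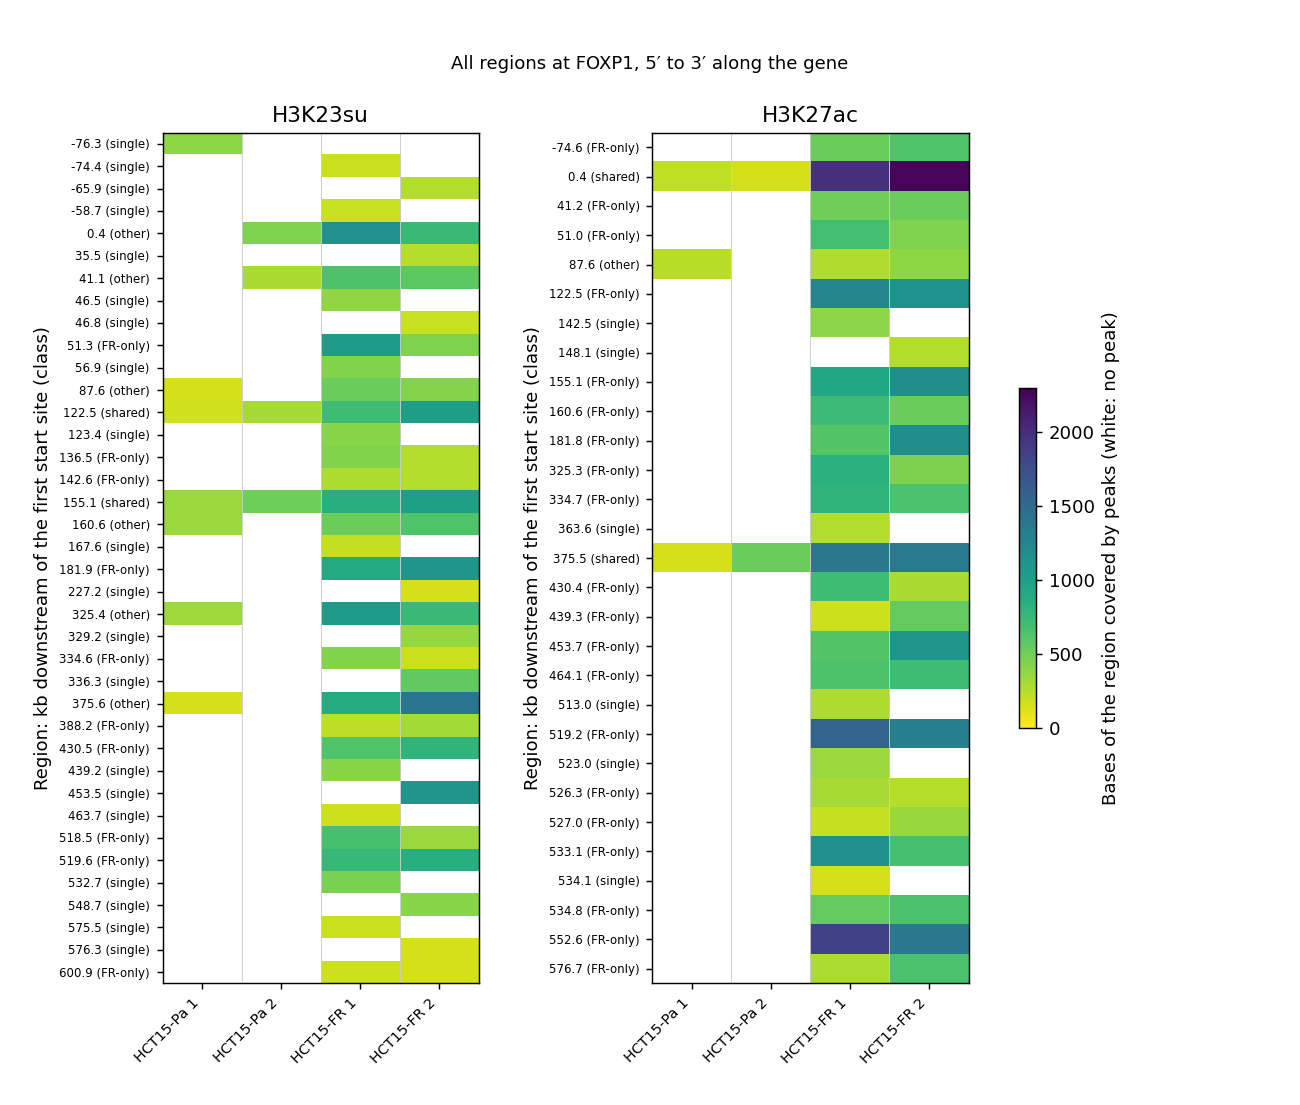
All 38 H3K23su regions (left) and 29 H3K27ac regions (right) at FOXP1, from 5′ to 3′, labelled by distance in kb downstream of the first start site and by class, with 1 column per library. Colour gives the bases of the region covered by peaks and white means no peak. The HCT15-Pa columns are filled in 9 and 3 rows, and the HCT15-FR columns in 37 and 29.

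At the 5′ end of the gene both lines had some signal. P1, the promoter of 17 transcripts with 11 coding ones, FOXP1-202 among them, had H3K23su peaks in HCT15-Pa replicate 2 (score 3.86) and in HCT15-FR replicates 1 and 2 (7.92 and 3.77). HCT15-Pa replicate 1 had none. H3K27ac at P1 had a peak of 146 bp in HCT15-Pa replicate 2 (score 4.30) and peaks of 1978 and 2272 bp in HCT15-FR (7.36 and 5.71). Thus P1 was not FR-only in either mark. For H3K27ac, where HCT15-Pa replicate 1 had no peak, the difference among the other libraries was one of width and score. The H3K23su peaks of HCT15-FR did not all exceed that of HCT15-Pa replicate 2, which was 445 bp wide. The wider one of HCT15-FR replicate 1 was 971 bp, and that of HCT15-FR replicate 2 only 146 bp, with a slightly lower score. P2, the promoter of a coding transcript that starts 1.9 kb downstream, was FR-only for H3K23su with scores of 7.92 and 7.57, from the same peaks that reach P1 or lie beside it. For H3K27ac, P2 also had a 222 bp peak of HCT15-Pa replicate 1 (4.54). P3, 2.4 kb downstream, had a single H3K27ac peak of HCT15-FR replicate 2, whose 2272 bp reach from P1. The windows of P2 and P3 overlap, so these promoters are not independent.

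The 200 bases before P1 printed above hold 1 TGTTTAC and 1 GGGNGTGG. Of 69689 promoters of protein-coding genes, 2.57% hold the first and 10.9% the second within 200 bases upstream, and 5.45% hold TGANTCA. These matches are letters in the reference and no measure of binding.

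Peaks at internal promoters were found in HCT15-FR alone. P23 starts 519.0 kb downstream of the first start site, in intron 7, and has 6 transcripts with 3 coding ones, which read from the downstream start codon in exon 8 and encode 231 to 577 codons against 677 for FOXP1-202. It had H3K23su peaks with scores of 4.43 and 5.36 in HCT15-FR replicates 1 and 2. Its H3K27ac peaks scored 6.08 in replicate 1, and 5.69 and 4.43 in replicate 2, which had a pair of peaks there. The one with 5.69 ends at position 71113979 and only touches the edge of the P23 window, which begins at 71113977. P24 starts 519.9 kb downstream, has a single non-coding transcript, and had H3K23su scores of 5.79 and 4.50. Of the H3K27ac peaks at P23, it shares those with scores of 6.08 and 5.69. Both were FR-only in both marks. P22, which starts 518.3 kb downstream and whose window overlaps that of P23, had H3K23su in HCT15-FR replicate 1 only (4.43).

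P19 starts 453.2 kb downstream, in intron 6. It has 5 transcripts, 4 of them coding, which use the start codons in exons 8 and 10 and encode 490 to 577 codons. It was FR-only for H3K27ac, with scores of 4.02 and 3.92, below the median of 5.46 for HCT15-FR regions of that mark at the locus. H3K23su was seen there in HCT15-FR replicate 2 only (4.25). No HCT15-Pa library had a peak of either mark at P19, P22, P23 or P24.

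Altogether 3 of 31 promoters were FR-only for H3K23su (P2, P23, P24) and 3 for H3K27ac (P19, P23, P24), and 0 were Pa-only in either mark. The counts depended on the definition. For H3K23su, 1 promoter was FR-only with the stronger 50% of each list and 5 with windows of 2 kb on either side, and for H3K27ac 7 were with those windows and 1 by the midpoint of the peak. Over the 69689 promoters of 20176 protein-coding genes, 1.83% were FR-only and 0.964% Pa-only for H3K23su, and 1.61% and 1.17% for H3K27ac. Of the FOXP1 promoters, 24 had no peak of either mark in any library. Of the 7 promoters with peaks, 5 were GC-rich over their windows, P1 with 59.3%, P2 with 67.8%, P3 with 66.8%, P23 with 60.1% and P24 with 60.1%. P19 and P22, with 42.4% and 39.9%, were within the range of the 24 promoters without peaks, 31.9% to 46.2% with a median of 40.1%. P23 had 113 CpG dinucleotides in its window and P1 had 95, against 23 at P19. The P23 sequence printed above shows this run of CpG.

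**Figure D4:**
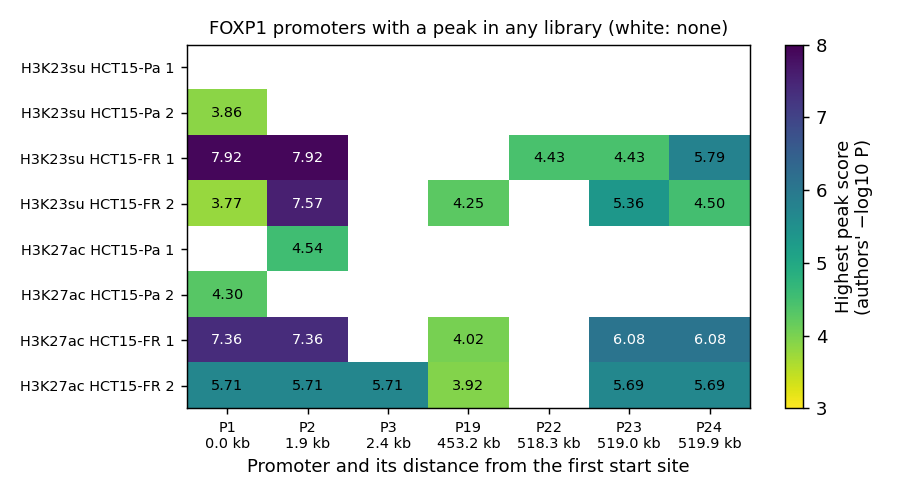
Highest peak score (the authors' −log10 P) at the 7 FOXP1 promoters with a peak in any library, with promoters and their distance from the first start site on the x axis and libraries on the y axis, white meaning no peak. HCT15-Pa has 1 H3K23su value (3.86, P1) and 2 H3K27ac values (4.30 at P1 and 4.54 at P2), and all values from P19 to P24 are of HCT15-FR.

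Most regions lay in introns, 34 of 38 for H3K23su and 28 of 29 for H3K27ac, the others being upstream of the gene. Introns 2 to 7, which make up 83.8% of the gene, held 9 of the 10 FR-only H3K23su regions and 15 of the 20 FR-only H3K27ac regions. H3K23su regions fell in 11 of the 20 introns and H3K27ac regions in 9. Intron 3, of 134 kb, had 8 H3K23su regions with 3 FR-only and 6 H3K27ac regions with 4 FR-only. H3K23su covered 854 and 824 bp of it in HCT15-Pa and 4311 and 4274 bp in HCT15-FR. H3K27ac covered 3913 and 4245 bp in HCT15-FR and had no peak in HCT15-Pa.

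Introns 6 and 7, which hold P19 and P22 to P24, had no HCT15-Pa peak of either mark. The same was true of intron 4 and of all introns further downstream, since HCT15-Pa peaks reached only introns 1, 2, 3 and 5. In intron 6, H3K23su covered 1442 and 2219 bp and H3K27ac 2144 and 2653 bp in HCT15-FR. In intron 7 the values were 1434 and 1188 bp for H3K23su and 2693 and 1919 bp for H3K27ac. Intron 4, of 59.3 kb, was nearly bare, with 146 bp of H3K23su in HCT15-FR replicate 2 and no H3K27ac. Between neighbouring regions, the longest gaps were 97.5 kb for H3K23su and 143 kb for H3K27ac, which span most or all of intron 4. Longer still were the empty stretches from the last region to the downstream edge of the collected stretch, 128 kb for H3K23su and 152 kb for H3K27ac. Introns 15 to 20, at the 3′ end, had no region of either mark.

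The 6 FR-only H3K23su regions outside promoters that ranked highest by their weaker HCT15-FR peak were all intronic. The first, chr3:71450671-71451852 in intron 3, had scores of 5.64 and 5.56 in HCT15-FR replicates 1 and 2, and its weaker peak stood at percentile 71.1 of its own list. It was covered over 893 and 1096 bp and coincided with an FR-only H3K27ac region. It holds none of the 3 cores within 200 bp of its midpoint. The next, chr3:71581307-71582367 in intron 2, had scores of 4.30 and 4.37 (percentile 41.7) and also carried an FR-only H3K27ac region.

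Chr3:71202258-71203073 in intron 6 followed with scores of 4.88 and 4.10, and H3K27ac there scored 5.63 and 9.21. Chr3:71298355-71298793 in intron 5 had 4.16 and 3.91, again with FR-only H3K27ac. Chr3:71244682-71245150 in intron 6 had 4.99 and 3.88 with no H3K27ac region, and is the one with the forkhead core printed above. Chr3:71490394-71490727 in intron 3 had 3.71 and 4.69, with H3K27ac in HCT15-FR replicate 1 only. After the first, these peaks were of middling or low rank in their lists, with weaker percentiles between 19.1 and 41.7.

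The other 4 FR-only H3K23su regions were those at P23 and P24, chr3:71496374-71496981 in intron 3 (4.47 and 3.70) and chr3:71032079-71032328 in intron 14 (5.14 and 3.43). Neither of the last pair had H3K27ac, and both hold an AP-1 core. The weaker percentiles of all 10 ranged from 7.16 to 71.1 with a median of 30.4. For the 20 FR-only H3K27ac regions they ranged from 3.88 to 85.6 with a median of 54.8.

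The strongest H3K23su peaks of the locus were in a region that was not FR-only. Chr3:71591657-71592300 in intron 2 had scores of 9.50 and 7.72 in HCT15-FR, at percentiles up to 96.1, and a peak of 3.90 in HCT15-Pa replicate 2. HCT15-Pa replicate 1 had none. H3K27ac was FR-only there, with 6.15 and 5.00. The window before the microRNA gene MIR1284, which lies in intron 2, overlaps this region.

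The strongest H3K27ac peaks were at chr3:71256870-71258349 in intron 5, which was found in all 4 libraries. Scores were 3.77 and 3.84 in HCT15-Pa and 11.0 and 11.9 in HCT15-FR, and the covered length was 146 and 525 bp against 1389 and 1349 bp. Among FR-only H3K27ac regions, chr3:71097981-71098646 in intron 9 had scores of 8.93 and 11.8 and the widest, chr3:71079595-71081449 in intron 11, had 6.28 and 6.82. Neither carried any H3K23su region. Over all regions with HCT15-Pa peaks, the median score was 3.86 for H3K23su and 3.84 for H3K27ac, and the highest 5.18 and 4.54. Over those with HCT15-FR peaks, the medians were 4.57 and 5.46 and the highest values 9.50 and 11.9.

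Both marks coincided at part of the locus. FR-only H3K27ac lay at 6 of the 10 FR-only H3K23su regions (60.0%), single-library H3K27ac at 1 and no H3K27ac at 3. Genome-wide, of 9735 such H3K23su regions, 35.8% coincided with FR-only H3K27ac, 17.1% with H3K27ac present in all 4 libraries and 82.5% with any. At FOXP1, 0 of 10 overlapped an H3K27ac region present in all 4, and 70.0% overlapped any. The gene was chosen for more HCT15-FR peaks in both marks, so nothing is read from how these shares differ from the genome-wide ones. Of the 19 H3K23su regions found in a single HCT15-FR library, 7 overlapped an FR-only H3K27ac region and 12 had no H3K27ac region. No genome-wide share is given beside the counts of these single-library regions, so they are a description only.

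In the other direction, 5 of the 20 FR-only H3K27ac regions (25.0%) overlapped an FR-only H3K23su region, against 28.5% over the genome, and 16 (80.0%) any H3K23su region, against 73.3%. The 4 without any were in introns 7, 9 and 11, towards the 3′ side of the gene. H3K27ac peaks were called in the broad mode and H3K23su peaks were not, so widths are not compared between the marks.

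The searched cores were found within 200 bp of the midpoint in 4 of the 10 FR-only H3K23su regions and in none of the other 6. TGANTCA was in 2 of 10 (20.0%), against 27.2% of all FR-only regions and 17.3% of all H3K23su regions. TGTTTAC was in 1 (10.0%), against 11.5% and 6.72%. GGGNGTGG was in 1 (10.0%), against 16.5% and 19.0%. All 38 regions of the locus held them in 10, 4 and 9 cases. With 10 regions, 1 match is worth 10.0%, more than any of the differences from the genome-wide shares.

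FOXP1 was compared with other protein-coding genes as a description, since it was selected for this pattern. Among genes with at least 20 H3K23su regions in the gene, 29.4% of the FOXP1 regions (10 of 34) were FR-only, the median gene had 7.69%, and 857 of 860 other genes had a lower share. The highest share was 40.0%. For H3K27ac, 67.9% of the FOXP1 regions (19 of 28) were FR-only against a median of 8.82%, and all 721 other genes had a lower share. In number of FR-only regions, 3 of 20176 genes had more than FOXP1 for H3K23su and 1 for H3K27ac. The readthrough gene ENSG00000285708, which overlaps nearly all of FOXP1 and so counts the same regions again, was 1 of these 3 and the 1 for H3K27ac. The others for H3K23su were MAML2 with 12 and DST with 11, named after their values were seen. Long genes can hold more regions, and 206 genes were longer than FOXP1.

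**Figure D5:**
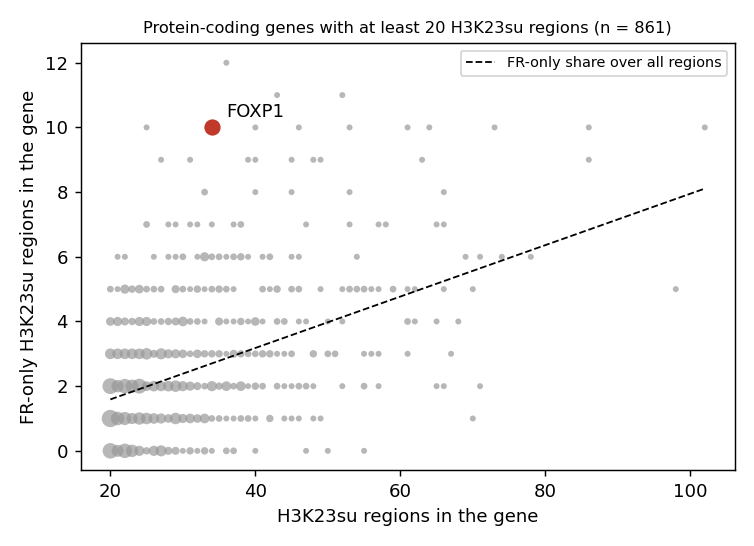
FR-only H3K23su regions (y axis) against all H3K23su regions in the gene (x axis) for protein-coding genes with at least 20 regions, with larger dots where several genes share a position, FOXP1 in red and the dashed line at the share over all regions (7.95%). FOXP1 has 10 of 34, above the line, and 3 genes lie higher, 1 of them the readthrough gene that overlaps FOXP1.

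The share of the gene body covered by peaks was compared across genes of at least 100 kb over the 8 libraries. For FOXP1 it was 0.236% and 0.198% for H3K23su in HCT15-Pa, 2.28% and 2.29% in HCT15-FR, 0.0977% and 0.101% for H3K27ac in HCT15-Pa, and 2.98% and 2.79% in HCT15-FR. NRP1, a receptor for semaphorins and VEGF, had the most similar profile. Its H3K23su values were 2.16% and 2.32% in HCT15-Pa and 5.01% and 5.07% in HCT15-FR, and its H3K27ac values 2.15% and 2.05% against 6.13% and 5.74%. The next were a readthrough gene overlapping FOXP1, then MAML2, a Notch coactivator, PCSK5, a proprotein convertase, and SYTL2, a synaptotagmin-like protein of vesicle traffic. The likeness was Pearson's r over 8 libraries that fall into 2 clusters by line, so it is given as a ranking of 3665 genes without its value. SYTL2 resembled FOXP1 in having little H3K23su in HCT15-Pa, 0.268% and 0.708%, against 4.64% and 4.89% in HCT15-FR.

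The other FOXP genes did not show this number of FR-only regions. FOXP2, of similar length at 607 kb, had 1 H3K23su region, present in all 4 libraries, and FOXP3, the factor of regulatory T cells, had none. FOXP4, of 56.0 kb, had 10 H3K23su regions, of which 0 were FR-only and 1 was Pa-only, and 13 H3K27ac regions, of which 2 were FR-only. With the genes of FOXP corepressors CTBP1, GATAD2A, GATAD2B, MTA1, HDAC1 and HDAC2 added, these 9 genes had 8 of 81 H3K23su regions FR-only (9.88%) and 2 Pa-only (2.47%), beside 7.95% and 5.01% over all H3K23su regions. For H3K27ac, 4 of 90 were FR-only (4.44%) and 3 Pa-only (3.33%), beside 9.08% and 4.53% over all regions. GATAD2A and GATAD2B, which encode subunits of the NuRD complex, each had 2 FR-only H3K23su regions, of 20 and 12, and HDAC2, a histone deacetylase, had 2 of 12. Whether FOXP1 RNA or protein differed between the lines was not measured in these libraries. The study names FOXP1 among predicted targets of the transcription factors FOSL2 and FOXA1. That prediction used motif sites in its H3K23su regions near start sites, so it rests partly on these same data, together with separate RNA-seq. From the RNA-seq it reports that most of those targets, with FOXP1 among its examples, had markedly higher RNA in HCT15-FR.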

How the data were processed

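CUT&Tag libraries of H3K23su and H3K27ac from HCT15-Pa and HCT15-FR were analysed, 2 per line and mark. The authors aligned reads to hg19 with Bowtie2, kept uniquely mapped proper pairs without duplicates, and called peaks per library with MACS2, in broad mode for H3K27ac. The deposited lists give position and the −log10 P of MACS2. They hold no read counts, so the added spike-in DNA could not be used. The read totals that the study lists per library were not used here.

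Peaks were assigned to regions and promoters by an overlap of at least 1 bp, using GENCODE release 44 on GRCh37, with Python 3.11.15 and pysam 0.24.0. A promoter was classed as in HOMER 4.10. Scores were ranked within their own list only. The procedure was checked on simulated peak lists. Named regions were all promoters, the 6 FR-only H3K23su regions outside promoters with the highest weaker percentile, any Pa-only region, and the shared region ranked highest. Others were named after their values were seen. Named genes were the FOXP family, corepressor genes, genes within 100 kb and the 5 genes most alike. FOXP1, the lists and the motifs were chosen with earlier results of these data known. Not every listed gene or extracted sequence is reported here. The alternatives covered peak threshold, overlap, merging, windows and left-out libraries.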

Additional observations from a re-analysis of the deposited data

How the results depend on the processing

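Of 103 values recomputed under other settings, 87 moved by less than the limits used and 16 by more, and none turned its direction. The limits were wide. A change from 10 to 14 FR-only H3K23su regions without HCT15-Pa replicate 1 lay within them. So did one from 20 to 27 FR-only H3K27ac regions without HCT15-FR replicate 2. Keeping the stronger 50% of each list left few covered bases in HCT15-Pa, 146 bp for H3K23su and 222 bp for H3K27ac in replicate 1. It changed the FR to Pa ratio of covered length from 8.63 to 121 for H3K23su and 30.3 to 133 for H3K27ac. It left 1 FR-only promoter for H3K23su in place of 3, and 1 FR-only region with TGANTCA, 0 with TGTTTAC and 2 with GGGNGTGG. It left FOXP1 with under 20 regions, so its percentile by FR-only share could not be given. In the gene body alone the H3K23su ratio was 10.6. With promoter windows of 2 kb on either side, 5 promoters were FR-only for H3K23su and 7 for H3K27ac, and by the midpoint of the peak 1 was for H3K27ac. Within 100 bp of the midpoint, 1 FR-only region held TGANTCA. Among genes with at least 10 regions the H3K23su percentile was 98.3 in place of 99.7. Leaving out 1 library gave 12 to 22 FR-only H3K23su regions (main count 10), with 20 without HCT15-FR replicate 1 and 22 without replicate 2, and 0 to 1 Pa-only ones, the 1 without HCT15-Pa replicate 2. It gave 6 to 11 FR-only H3K23su regions that overlap an FR-only H3K27ac region, the 11 without HCT15-FR replicate 2 of H3K23su. A left-out library leaves fewer conditions to meet, and the cause of the other changes was not tested. FR-only H3K27ac regions numbered 15 to 27 over all settings. No paired analysis was possible because the results are counts and lengths that come from no test. Without read counts, the lists cannot show how far a missing peak lay below the threshold.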

Other observations

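The genes around FOXP1 added few line-specific regions. In the 100 kb upstream of the gene, the only FR-only region was one of H3K27ac, chr3:71707439-71708099, with scores of 4.98 and 5.88 in HCT15-FR replicates 1 and 2. Apart from the region at P1, H3K23su had 4 regions there, each in a single library, and the one at chr3:71709256-71709643 was the only region of the locus found in HCT15-Pa alone, in replicate 1 with a score of 3.55. EIF4E3, a translation factor gene of the cap-binding family, overlaps the upstream end of this stretch. It had 5 H3K23su and 6 H3K27ac regions, of which 1 each was FR-only. All of them lay beyond the stretch, so they are not among the regions counted at the locus. The antisense and intronic genes FOXP1-AS1 and FOXP1-IT1, the divergent FOXP1-DT and MIR1284 held no region of either mark within their annotated bounds. A peak list has no strand, so signal in FOXP1 cannot be told apart from signal of genes that lie within it. In the 100 kb downstream of FOXP1 neither mark had a region.

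At the edges of the stretch, the nearest H3K27ac region outside it on the upstream side was FR-only and 0.812 kb away. On the downstream side it was present in all 4 libraries, 4.05 kb away, and was covered over 292 and 318 bp in HCT15-Pa and 432 and 740 bp in HCT15-FR. The nearest H3K23su region downstream was 572 kb away.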
